A study of Mus musculus with 12 samples.

Results

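Promoter peaks of the histone variant H2A.Z were examined at 34 genes for postsynaptic scaffold and adhesion proteins in the nucleus accumbens of the mouse. The genes were listed by name, and a peak was taken as theirs where the authors had assigned it to 1 of them and its middle lay within 1000 bp of the transcription start site (TSS). By this rule 31 of the 34 genes had a promoter peak in at least 1 of the 4 deposited lists, with 100 promoter peaks in all, out of 14993 genes with a promoter peak in any list. Chromatin of the nucleus accumbens was immunoprecipitated from 12 samples in 4 conditions of 3, whose codes pair S for saline and C for cocaine. SS mice received only saline. SC is labelled acute and pairs saline with cocaine, CS is labelled withdrawal and pairs cocaine with saline, and CC is labelled challenge and has cocaine at both steps. The sources used here do not state dose, interval, age, sex, strain or batch, and the total histone H3 libraries were not analysed here. Each condition is represented by 1 peak list with no values per sample, so no value has a replicate error and no difference between conditions was tested.

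At an excitatory synapse, neurotransmitter receptors are held opposite the release site by a dense protein lattice. MAGUK proteins bind the receptors, SAPAP proteins tie MAGUKs to SHANK, and SHANK reaches Homer and the actin skeleton. Adhesion proteins such as neuroligins and LRRTMs span the cleft to presynaptic neurexins, and gephyrin is the scaffold of the inhibitory synapse. H2A.Z replaces ordinary H2A in nucleosomes around start sites, often in promoters rich in CG dinucleotides. The medium spiny neurons of the nucleus accumbens receive most of their glutamate input on dendritic spines built with these proteins, and their spines are known to change with cocaine.

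Most of these genes had an H2A.Z peak listed at a start site in the lists without a cocaine history, and few did in the lists with one. A promoter peak was found at 29 of 34 genes in SS (85.3%, 95% exact binomial interval 68.9 to 95.05%), where 53.4% of RefSeq protein-coding genes had one. In SC 30 of 34 genes had a promoter peak, against 50.9% of protein-coding genes. In CS 3 of 34 had one (Dlgap3, Dlgap4 and Pick1), or 8.82% (1.86 to 23.7%), against 17.2%. In CC 2 of 34 had one (Dlg2 and Dlgap3), or 5.88% (0.720 to 19.7%), against 13.5%. The CS and CC intervals both include the share over protein-coding genes. The intervals cover the counting of genes only. The CS and CC lists also held fewer and narrower peaks, as given below, and condition and list properties cannot be told apart. An absent peak is therefore not a measure of less H2A.Z. The tissue was also analysed in bulk, so the lists do not separate the number of cells with H2A.Z at a promoter from its amount in each cell.

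**Figure D1:**
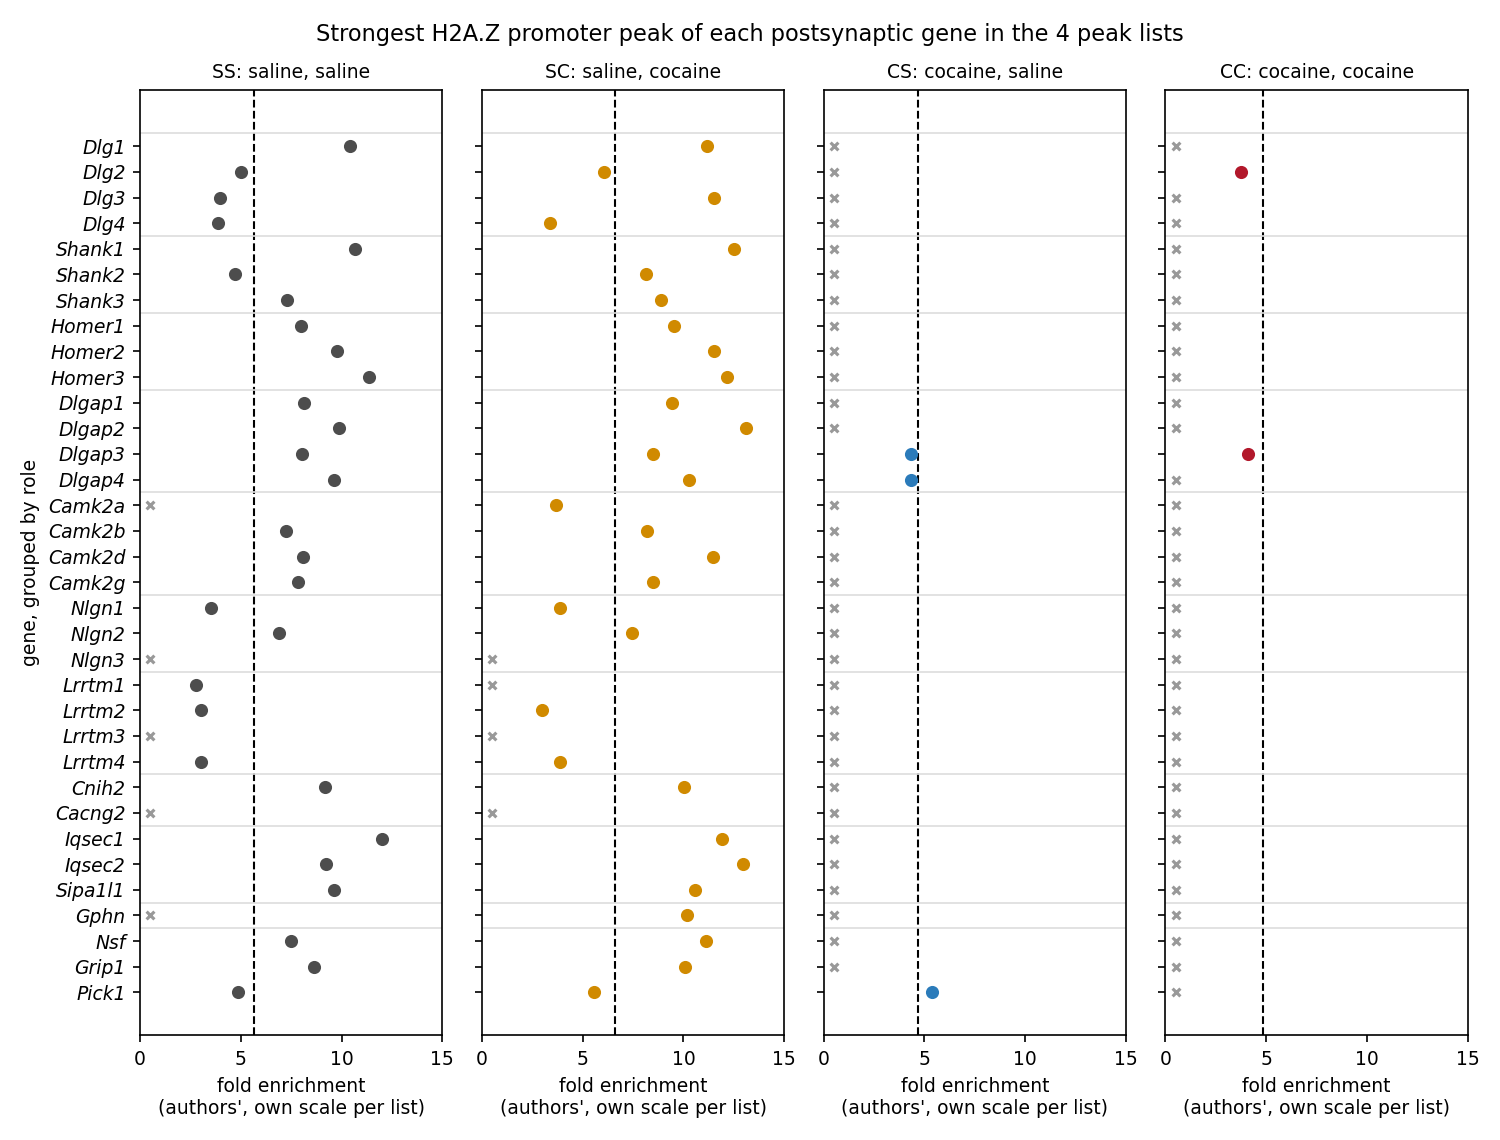
Fold enrichment of the strongest promoter peak of each gene in the SS, SC, CS and CC lists, with genes grouped by role. Points are the authors' fold enrichments on each list's own scale, grey crosses at the left edge mark genes without a promoter peak, and dashed lines are the medians over all genes with a promoter peak in that list (5.65, 6.59, 4.68 and 4.85); 29, 30, 3 and 2 genes have a point.

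Promoter sequences are given so that the base composition of strongly marked, weakly marked and unmarked genes can be compared. RefSeq windows on GRCm38.p6, reaching from 250 bases before to 50 bases after an annotated start, were matched by symbol for 27 of the 34 genes (46 windows). The windows below belong to the genes with a CS or CC peak for which RefSeq gives a window at that promoter (Pick1, Dlgap4), the pair with the strongest SS promoter peaks and none in CS or CC (Iqsec1 and Homer3), and a gene with no peak in any list (Lrrtm3), which was added after its values were seen. Of the Pick1 windows, the one that a CS peak overlaps is printed. For Iqsec1 the window lies at a start other than that of its strongest peak. Capitals mark each CG dinucleotide, searched as the letters CG, which read the same on the other strand.
Pick1, plus strand, chr15:79228923-79229222: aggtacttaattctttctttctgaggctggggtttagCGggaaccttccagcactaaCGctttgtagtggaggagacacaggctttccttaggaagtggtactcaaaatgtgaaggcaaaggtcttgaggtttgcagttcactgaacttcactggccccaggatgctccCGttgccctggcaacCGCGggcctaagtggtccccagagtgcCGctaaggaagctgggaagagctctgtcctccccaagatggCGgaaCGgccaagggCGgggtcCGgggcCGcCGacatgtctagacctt
Dlgap4, plus strand, chr2:156720715-156721014: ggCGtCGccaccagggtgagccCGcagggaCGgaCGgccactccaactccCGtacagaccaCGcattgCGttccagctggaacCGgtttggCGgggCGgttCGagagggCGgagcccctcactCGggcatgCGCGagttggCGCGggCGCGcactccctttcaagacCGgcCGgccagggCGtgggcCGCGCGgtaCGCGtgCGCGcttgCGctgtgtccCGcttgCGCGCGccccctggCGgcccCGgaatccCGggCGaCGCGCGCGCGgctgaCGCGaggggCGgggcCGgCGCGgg
Homer3, plus strand, chr8:70282749-70283048: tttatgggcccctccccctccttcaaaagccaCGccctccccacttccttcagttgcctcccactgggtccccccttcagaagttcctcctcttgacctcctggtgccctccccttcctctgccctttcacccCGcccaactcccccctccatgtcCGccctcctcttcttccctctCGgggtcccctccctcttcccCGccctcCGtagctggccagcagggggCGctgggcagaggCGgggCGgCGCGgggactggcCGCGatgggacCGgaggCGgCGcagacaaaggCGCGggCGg
Iqsec1, minus strand, chr6:90716480-90716779: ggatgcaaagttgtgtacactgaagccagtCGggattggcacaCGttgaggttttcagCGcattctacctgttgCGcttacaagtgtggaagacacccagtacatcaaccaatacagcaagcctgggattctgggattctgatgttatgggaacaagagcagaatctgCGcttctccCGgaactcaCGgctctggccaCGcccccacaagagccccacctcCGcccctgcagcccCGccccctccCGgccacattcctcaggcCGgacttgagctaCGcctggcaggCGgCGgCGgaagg
Lrrtm3, minus strand, chr10:64090206-64090505: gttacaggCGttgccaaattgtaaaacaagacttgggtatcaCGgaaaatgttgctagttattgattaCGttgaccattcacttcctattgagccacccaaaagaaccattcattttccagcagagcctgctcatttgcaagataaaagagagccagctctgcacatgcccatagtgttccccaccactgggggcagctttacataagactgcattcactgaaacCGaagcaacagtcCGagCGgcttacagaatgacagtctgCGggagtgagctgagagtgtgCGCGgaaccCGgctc

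The Dlgap4 window held 50 CG dinucleotides, a count reached by 0.855% of the 32851 RefSeq promoter windows. The Homer3 window held 19 and the Iqsec1 window 16, counts reached by 28.1% and 33.0% of windows. The printed Pick1 window held 12 (39.6% of windows) and the Lrrtm3 window 10 (43.5%). Pick1 has another RefSeq window at its main start (chr15:79229132-79229431), also covered whole by the SS and SC peaks, which held 24 CG dinucleotides (20.0% of windows) and was not touched by a CS peak. SS peaks covered all 300 bases of the printed Pick1, Dlgap4 and Homer3 windows, 166 bases of the Iqsec1 window and none of the Lrrtm3 window. Of the 46 windows of these genes, only the printed Pick1 window was touched by a CS peak, over 63 bases. That is 2.17% of them, against 4.65% of all RefSeq windows, and this count is too small to set these genes apart. No CC peak touched any of them, against 3.26% of all RefSeq windows. Over the 25 windows of these genes that an SS peak overlapped, the median was 26 CG dinucleotides, and over the 21 that none overlapped it was 5. Among all RefSeq windows the medians were 23 with an SS peak and 3 without. The 21 windows belong to 16 genes, and all of these except Lrrtm3 had an SS promoter peak elsewhere. The medians thus compare windows, not marked with unmarked genes. A Dlg4 window among the 21 starts at 70018355, next to an SS peak that ends at 70018354. Across the 25 overlapped windows, which belong to 21 genes and partly share peaks, Spearman's rho between the CG count and the fold enrichment of the SS peak was 0.51.

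**Figure D2:**
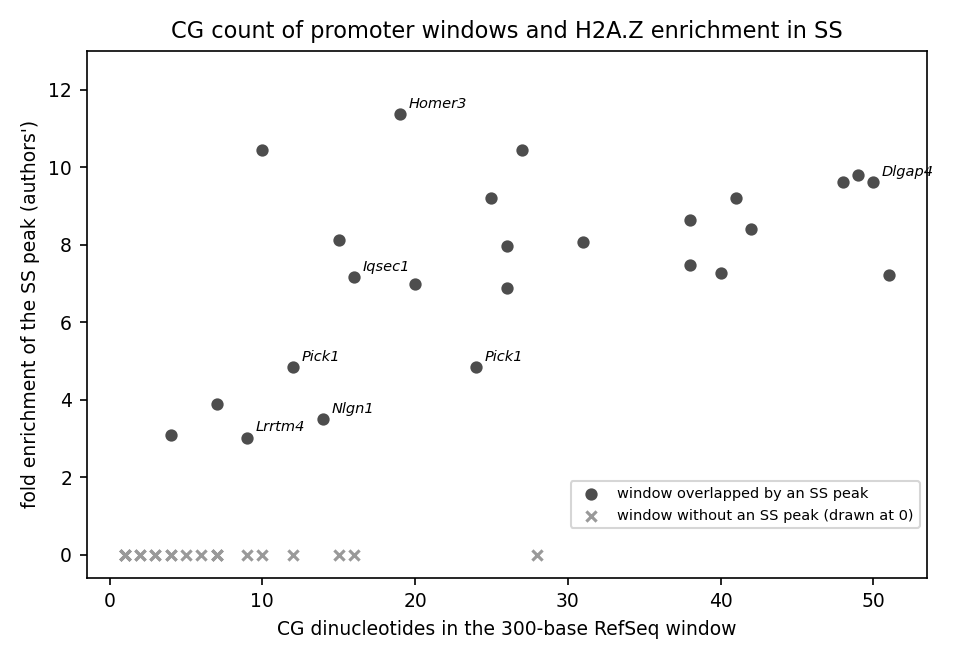
Number of CG dinucleotides in each RefSeq promoter window of the genes (x axis) against the authors' fold enrichment of the SS peak overlapping it (y axis). Dark points are the 25 windows with an SS peak (median 26 CG), and grey crosses drawn at 0 are the 21 windows without one (median 5 CG). Except for the Lrrtm3 window, the crosses belong to genes with an SS promoter peak elsewhere.

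The lists themselves differ in ways that bear on every comparison with CS and CC. The SS and SC lists held 24655 and 23170 peaks with median widths of 734 and 727 bp, and the CS and CC lists 6417 and 4827 peaks with median widths of 110 and 107 bp. The highest q-values of the SS and SC lists were 0.000544 and 0.000572, and those of the CS and CC lists 0.0510 and 0.0625. The sources used here do not state whether reads were pooled or how peaks were called in each condition. The condition and the properties of its list cannot be told apart. Of 10 marker genes of medium spiny neurons 9 had a promoter peak in SS and 8 in SC, while CS and CC had 0. Of all SS promoter genes only 28.8% had a promoter peak in CS and 22.7% in CC, and the marker sets are small. In SS, 3 of 6 astrocyte markers had one, as did 2 of 6 oligodendrocyte markers, 0 of 6 microglia markers and 4 of 5 endothelial markers. In CS the only markers with a promoter peak were 2 endothelial ones (Kdr and Esam), and in CC the only one was Olig1. The part of cell composition in the results was not tested.

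MAGUK scaffolds bind receptors directly, and all 4 of their genes had a promoter peak in SS and SC. Dlg1, which encodes SAP97, had its strongest SS peak at chromosome 16, 31663451 to 31664635, with a fold enrichment of 10.4, the authors' ratio of signal in the peak over background; in SC it was 11.2. The scale of the folds differs between lists, so each is read within its own list, and 88.7% of SS promoter genes had a weaker strongest peak than Dlg1. Dlg4, which encodes PSD-95, a major scaffold of the excitatory synapse, stood low, with 3.84 in SS (14.7% of SS promoter genes weaker) and 3.38 in SC (6.92% of SC promoter genes weaker). Its SS peak was 396 bp wide and its middle lay at −310 bp from the TSS (chromosome 11, 70017958 to 70018354). At the same start SC had a peak with a fold of 2.99 (70017906 to 70018380), which covered the whole SS peak. The strongest SC peak of Dlg4 lay at −797 bp from another start. Dlg2 (PSD-93) had 4.99 in SS and 6.08 in SC, with 5 promoter peaks in SC and 2 in SS.

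Dlg3, the X-linked gene for SAP102, was the MAGUK whose standing differed most between SS and SC. Its fold enrichment was 3.97 in SS (17.1% of SS promoter genes weaker) and 11.5 in SC (79.2% of SC promoter genes weaker). The peak was 1064 bp wide in SS and 549 bp in SC, at the same start (chromosome X, 100767355 to 100768419 in SS). A fold of exactly the SS size was shared by 206 SS peaks. Iqsec2, also X-linked, had 9.21 in SS (79.1% weaker) and 12.95 in SC (89.3% weaker). Chromosome X held 334 promoter peaks in SS (2.17% of promoter peaks; median fold 4.06) and 415 in SC (2.83%; median fold 4.75). The part of the animals' sex in these values was not tested. The third X-linked gene, Nlgn3, had no peak in any list within 3000 bp of the gene as RefSeq places it on GRCm38.p6 (chromosome X, 101299179 to 101321350).

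Every SHANK and Homer gene had a promoter peak in SS and in SC, and CS and CC listed none for them. Among all SS promoter genes only 28.8% had one in CS and 22.7% in CC. These families are too small for the absence to set them apart. Shank1 had its strongest SS peak at the downstream of its marked starts (10.6, chromosome 7, 44335610 to 44336336; 12.5 in SC), and at the upstream one the fold was 4.37 in SS and 6.55 in SC. Shank2 had 4.73 in SS and 8.14 in SC. Shank3, whose loss in mice causes repetitive grooming and altered striatal synapses, had 7.27 in SS (chromosome 15, 89499251 to 89500447) and 8.89 in SC. Homer proteins link SHANK to metabotropic glutamate receptors. Homer3 had the second highest SS fold of all these genes (11.4, chromosome 8, 70282665 to 70283604; 94.6% of SS promoter genes weaker) and 12.2 in SC, followed by Homer2 (9.79 and 11.5) and Homer1 (7.97 and 9.52).

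Among the SAPAP scaffolds, which bridge MAGUK and SHANK proteins, 2 of 4 genes had a promoter peak in CS and 1 of 4 in CC. Of all SS promoter genes 28.8% had one in CS and 22.7% in CC. Counts among 4 genes are too small to set this group apart. All 4 had promoter peaks in SS and SC: Dlgap1 with 8.11 and 9.44, Dlgap2 with 9.87 and 13.1, Dlgap3 with 8.03 and 8.47, and Dlgap4 with 9.61 and 10.3. Dlgap3 encodes SAPAP3, the SAPAP known for corticostriatal synapses and, in mice lacking it, for compulsive grooming. It was the only 1 of the 29 SS genes with a promoter peak in all 4 lists, against 11.7% of SS promoter genes. Its SS peak was 1394 bp wide (chromosome 4, 127168414 to 127169808), its CS peak 129 bp (127168703 to 127168832, fold 4.35) and its CC peaks 124 and 78 bp (127168697 to 127168821 and 127168395 to 127168473, folds 4.07 and 4.07). The CS peak and the wider CC peak lay at almost the same place, with middles at −437 and −445 bp from the TSS, and not at the TSS itself.

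Dlgap4 had a CS promoter peak and none in CC. Of its SS peaks, which lay at separate starts, the one at the downstream start had 9.61 (chromosome 2, 156720458 to 156721588) and the one at the upstream start 8.40. The CS peak (156721530 to 156721599, fold 4.35, 69 bp wide) sat across the downstream edge of the former, 72 bp past another annotated start, outside the sequence printed above. A fold of exactly this size was shared by 532 of the 6417 CS peaks, among them the CS promoter peak of Dlgap3, and their q-value was 0.00422. Dlg2 was the other gene with a CC promoter peak, 137 bp wide at 110 bp past the TSS (chromosome 7, 90476736 to 90476873), with a fold of 3.75 and a q-value of 0.0241. Only 3.81% of CC peaks had a lower fold.

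**Figure D3:**
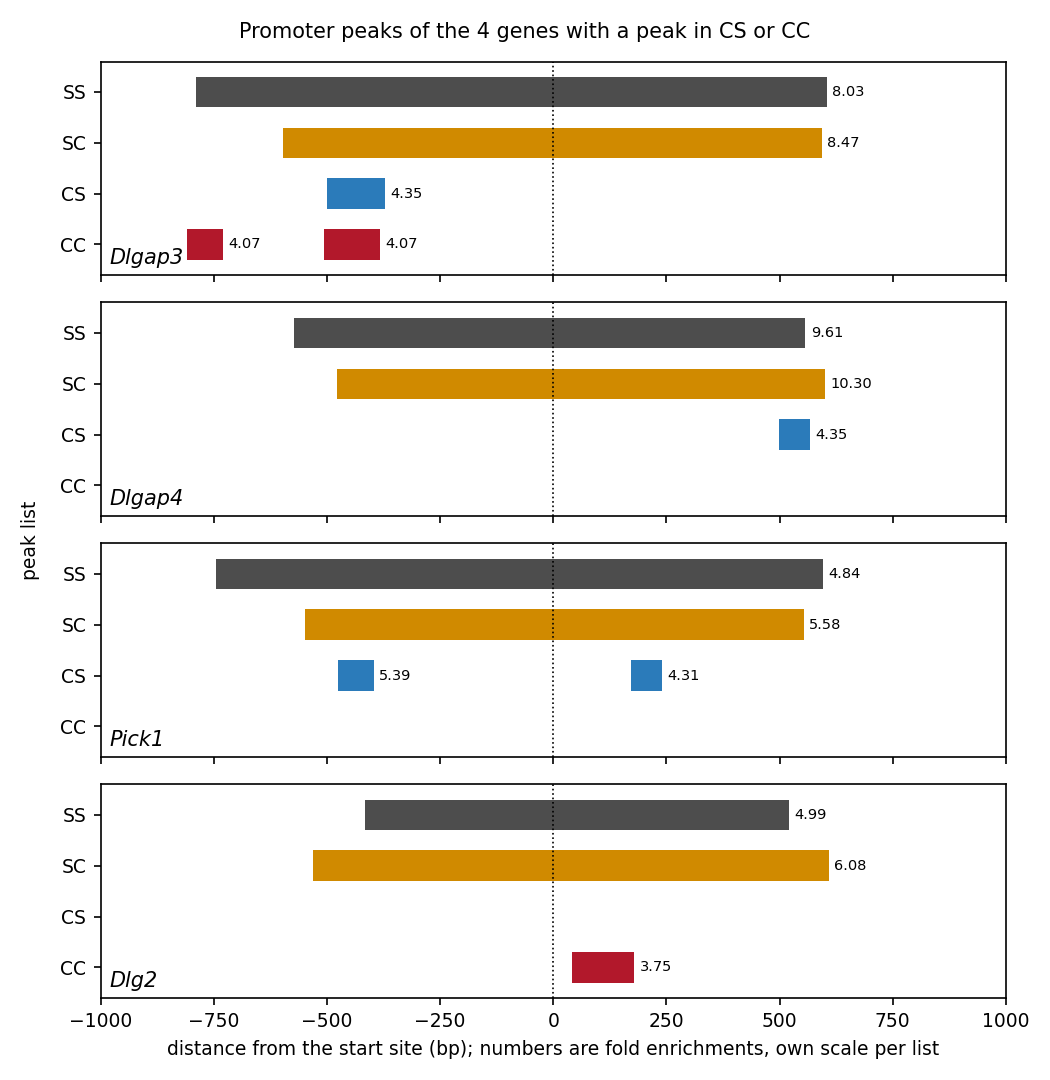
Promoter peaks of Dlgap3, Dlgap4, Pick1 and Dlg2 in the SS, SC, CS and CC lists, drawn to scale as bars along the distance from the start site in bp, with the authors' fold enrichment beside each bar. The SS and SC peaks span the start, from 936 to 1394 bp wide in SS, and the CS and CC peaks are between 69 and 137 bp wide and lie to one side of it.

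CaMKII, the calcium-dependent kinase that is itself a large part of the postsynaptic density, showed a split between its subunit genes. Camk2d (8.08 in SS, 11.5 in SC), Camk2g (7.86, 8.49) and Camk2b (7.22, 8.21) had wide promoter peaks in both lists, of 1386, 1426 and 1187 bp in SS. Camk2a, the alpha subunit gene of forebrain neurons, had no peak in SS within 3000 bp of the gene as RefSeq places it. In SC it had 1 peak with a fold of 3.69 (chromosome 18, 60963379 to 60964010), and 10.7% of SC promoter genes were weaker. That peak lay at an annotated start inside the gene, which RefSeq places at 60925307 to 60988152, and not at its RefSeq start. Its fold was shared by 160 SC peaks. No CaMKII gene had a promoter peak in CS or CC. As only 28.8% of all SS promoter genes had one in CS and 22.7% in CC, so few genes cannot be set apart by this.

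Adhesion genes had folds from low to above the list medians. Among neuroligins, Nlgn2, found at inhibitory synapses, had 6.89 in SS (62.3% of SS promoter genes weaker) and 7.47 in SC, while Nlgn1, found at excitatory synapses, had 3.50 and 3.90. Among the LRRTM genes, whose proteins bind presynaptic neurexins or heparan sulphate, the SS folds were 2.76 for Lrrtm1, 3.04 for Lrrtm2 and 3.02 for Lrrtm4, with widths of 345, 418 and 393 bp. Between 0.979% and 2.94% of SS promoter genes were weaker than these 3. Lrrtm2 and Lrrtm4 also had a promoter peak in SC (2.98 and 3.88), Lrrtm1 had none there, and Lrrtm3 had no peak in any list. Lrrtm1 also gave the peak nearest inside the 1000 bp limit (867 bp past the TSS in SS, fold 2.69), and the nearest outside was an SC peak of Nlgn1 (−1105 bp, fold 2.83).

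Genes for AMPA receptor partners and for regulators of small GTPases carried strong promoter peaks in SS and SC. Cnih2, a cornichon that rides with AMPA receptors, had 9.19 in SS and 10.0 in SC. Iqsec1, an exchange factor for Arf GTPases, had the highest SS fold of the 34 genes (12.003, chromosome 6, 90736169 to 90737257) and 4 promoter peaks in each of SS and SC; the SS folds at its other starts were 9.05, 7.16 and 3.10. Sipa1l1, a spine protein that acts on Rap, had 9.61 and 10.6. Nsf, the ATPase that takes SNARE complexes apart and binds the GluA2 subunit, had 7.47 and 11.1, and Grip1, a PDZ protein that anchors GluA2, had 8.62 and 10.1. Pick1, which binds GluA2 during its internalisation, had lower folds, 4.84 in SS and 5.58 in SC. It nevertheless had 2 narrow CS peaks on either side of its main start, 79 bp (chromosome 15, 79228906 to 79228985, fold 5.39, q-value 1.63e-05) and 69 bp (79229553 to 79229622, fold 4.31). The first was the strongest CS promoter peak of these genes, above 84.4% of all CS peaks.

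For 2 of the genes without a promoter peak of their own name in SS, a peak stood at their start under another name. At Gphn, the gephyrin gene, the SS peak over its start (chromosome 12, 78225810 to 78227363, fold 8.41) was assigned to AC148324.1, whereas the SC peak there (78225905 to 78227406, 10.2) was assigned to Gphn. At Cacng2, the stargazin gene for an AMPA receptor auxiliary subunit, the SS and SC peaks (6.97, chromosome 15, 78119327 to 78120218, and 8.83) were assigned to A730060N03Rik. Counting any peak within 1000 bp of a start of the gene, whatever its assigned name, 31 genes were marked in SS and 31 in SC, 3 in CS and 2 in CC. So the gain of Gphn between SS and SC is one of naming, while Camk2a and Lrrtm1 differed by position as well.

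SC concerns a first exposure to cocaine, and set against SS it held nearly the same genes. Of the 29 SS genes 28 also had an SC promoter peak (96.6%, 82.2 to 99.9%), against 88.2% of all SS promoter genes. Lrrtm1 was the exception. In the other direction 2 of 30 SC genes, Camk2a and Gphn, had none of that name in SS, against 7.42% of SC promoter genes. At the level of peaks, 39 of 43 SS promoter peaks overlapped an SC peak by at least 1 bp, a share near the 89.0% of all SS promoter peaks. In the other direction 41 of 50 SC promoter peaks overlapped an SS peak, against 93.5% of all SC promoter peaks. The 4 SS peaks without an SC counterpart had folds of 2.69 to 3.42 and belonged to Lrrtm1, Dlgap1 and Dlgap2. The 9 SC peaks without an SS counterpart had folds of 2.62 to 4.13 and belonged to Camk2a, Camk2b, Dlg2, Dlg4, Pick1 and Shank3. Apart from Camk2a, each of these genes had another SC promoter peak that did overlap an SS peak. Overlapped SS peaks had a median of 7.27.

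CS concerns a cocaine history followed by saline, and CC a further exposure to cocaine after such a history. Of the 29 SS genes 3 also had a promoter peak in CS (10.3%, 2.19 to 27.4%), against 28.8% of all SS promoter genes, and 2 had one in CC (6.90%, 0.846 to 22.8%), against 22.7%. Each of the 4 CS and 3 CC promoter peaks overlapped an SS peak, as did 97.1% of all CS and 97.0% of all CC promoter peaks. None of them had a −log10 q of 5 or more, so that with this limit both counts were 0 of 29, and 4.37% of SS promoter genes were then found in CS and 3.57% in CC. With 4827 peaks taken from every list by fold, 2 of 16 genes were found in CS (22.1% of all) and 1 of 16 in CC (23.1% of all).

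**Figure D4:**
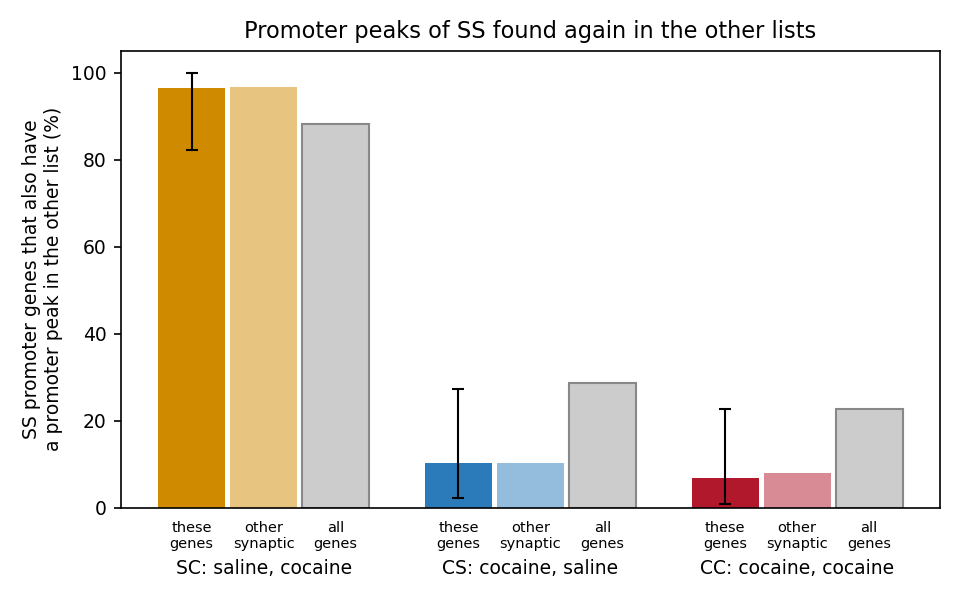
Share of genes with an SS promoter peak that also have a promoter peak in SC, CS or CC, for the scaffold and adhesion genes (saturated bars, 29 genes; error bars are 95% exact binomial intervals over genes), for other synaptic genes (paler bars, 88 genes) and for all SS promoter genes (grey bars, 13585 genes). The shares of the scaffold and adhesion genes are 96.6%, 10.3% and 6.90%, and those of all genes 88.2%, 28.8% and 22.7%.

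In SS the median gene of the set had a stronger promoter peak than the median gene overall. The strongest SS promoter peaks of the set had a median fold of 7.97 and a median width of 1064 bp, against 5.65 and 1005 bp over all SS promoter genes. Taking the strongest peak favours genes with several, and 12 of the 29 had 2 or more, against 11.7% of all SS promoter genes. With the mean over a gene's promoter peaks the median of the set was 7.22, and no such value is given here for all genes. When SS promoter genes were sorted by fold into 5 equal groups, 12 of the 29 genes fell in the fourth group and 8 in the strongest. Of all genes in these groups 26.4% and 30.7% had a CS promoter peak, and 1 of the 12 (Dlgap3) and 1 of the 8 (Dlgap4) did. The groups from weakest to middle held 6, 3 and 0 of the genes, with 10.6%, 31.9% and 44.6% of all genes found in CS. The genes were also long: the median was 101 kb against 27.2 kb over 11696 protein-coding SS promoter genes with a RefSeq length, and 16 of 29 fell in the longest of 5 equal groups by length. In that group 25.01% of all genes had a CS promoter peak and 21.6% a CC promoter peak, against 1 of the 16 in each.

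Several promoter peaks per gene were common, though not always at separate starts. Both SS peaks of Lrrtm1 were assigned to the same start. Of the 29 SS genes 12 had 2 or more SS promoter peaks, against 11.7% of all SS promoter genes, with Iqsec1 at 4. Peaks also lay in the gene bodies: 8 of the 29 had an SS gene body peak, against 9.27% of SS promoter genes. Gphn, with no SS promoter peak of its name, had one as well.

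A few gene body peaks were present in lists where the promoters were not. In Gphn, 124314 bp from the start by its middle in CS and outside the promoter rule, the same place on chromosome 12 carried a peak in all 4 lists, spanning 78350686 to 78351237 in SS and 78350920 to 78351015 in CS. Its folds in SS and SC were 5.90 and 5.92, those in CS and CC 17.06 and 17.04, and in that order they ranked 6936 of 24655, 8272 of 23170, 38 of 6417 and 42 of 4827 within their lists. In Dlgap2, 127209 bp from the assigned start in CS, a peak on chromosome 8 (14306646 to 14307227 in SS, 14306799 to 14306954 in CS) likewise stood in all 4, with folds of 3.97, 6.45, 7.03 and 7.61. In Grip1 a peak 238095 bp from the start in CS stood in SS (3.89), SC (4.48) and CS (4.35) and not in CC. Neither Gphn nor Dlgap2 nor Grip1 had a promoter peak in CS or CC. In all, 3 of the 19 SS peaks of these genes beyond 1000 bp overlapped a CS peak, while 3 of their 43 SS promoter peaks did; over all genes the shares were 8.26% and 27.1%.

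**Figure D5:**
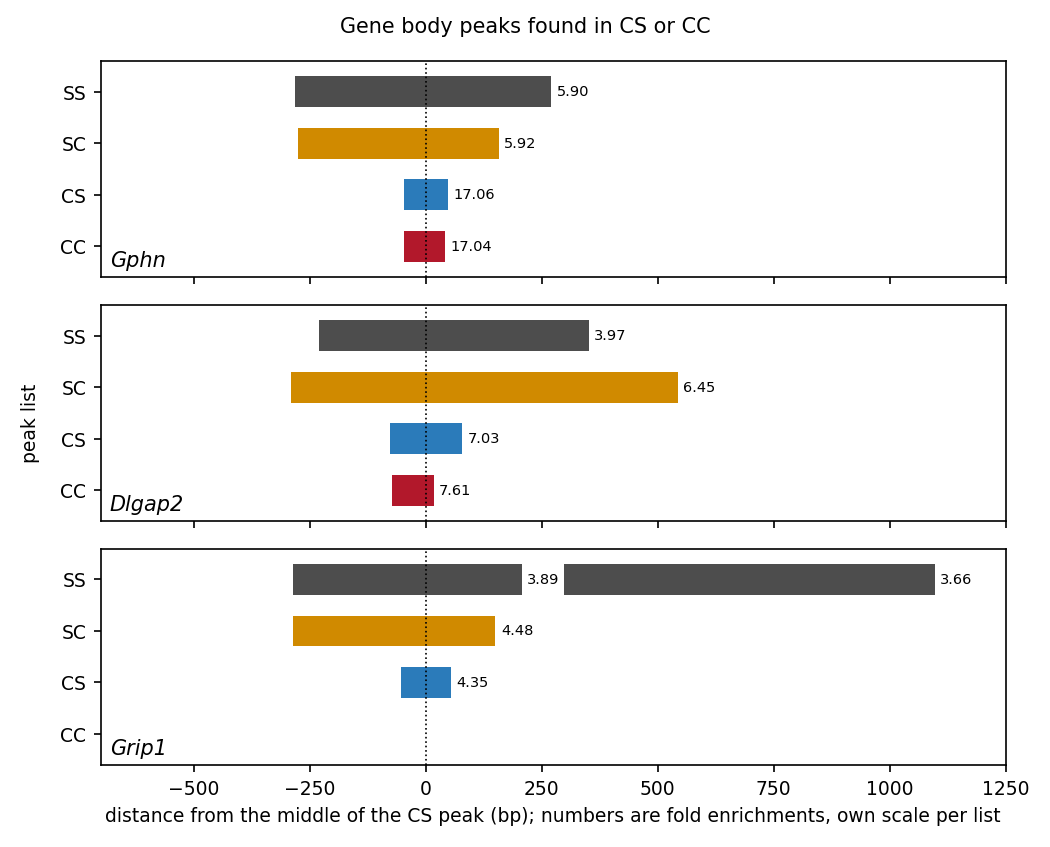
Gene body peaks of Gphn, Dlgap2 and Grip1 in the SS, SC, CS and CC lists, drawn to scale along the distance from the middle of the CS peak in bp, with the authors' fold enrichment on each list's own scale. The CS peaks are 95, 155 and 109 bp wide and lie inside SS peaks of 551, 581 and 492 bp.

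Other synaptic genes, 100 in 4 lists with Magi2 on 2 of them, gave counts of the same order. Of these, 88 had a promoter peak in SS and 86 in SC, against 53.4% and 50.9% of protein-coding genes. Of the 88, 85 (96.6%) were also in SC, 9 (10.2%) in CS and 7 (7.95%) in CC. Over all SS promoter genes the shares were 88.2%, 28.8% and 22.7%, in that order. Among 35 other scaffold and spine genes, 33 had an SS peak, led by Lin7c (12.2), Mpp3 (11.3) and Tanc1 (9.56). Magi1, Cyfip1, Lin7a, Lin7c and Sorbs2 were in CS, and Magi1, Magi3, Sipa1l3, Kalrn and Epb41l1 in CC. Among 16 other genes for AMPA receptor partners 13 had an SS peak, led by Cnih1 (13.4), Frrs1l (11.8) and Cnih3 (10.7), with Cnih1 and Cacng4 in CS and Cnih1 in CC. Among 41 other adhesion genes 35 had an SS peak, led by Ptprs (11.1), Lrfn4 (10.8) and Clstn2 (10.6), with 1 of them in CC, Ntng1 (4.12). Among 9 other genes of the inhibitory synapse 8 had an SS peak, led by Shisa7 (11.3), Lhfpl4 (9.84) and Dag1 (9.78), with Lhfpl4 in CS and none in CC.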

How the data were processed

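H2A.Z ChIP-seq of mouse nucleus accumbens was analysed from 4 annotated peak lists, 1 for each of SS, SC, CS and CC, each named by all 3 samples of its condition. Per the submitters' processing notes, mm10 was the build and MACS2, SAMtools, HISAT and cutadapt were used. The sources used here do not state versions, settings, the control library or any pooling. Each peak has a fold enrichment, a ratio over background made by the authors, and a q-value on a linear scale, both per the file headers. The authors also deposited an assigned gene and a distance, which equalled the peak middle minus the TSS within 0.5 bp on testing. Starts and ends are printed as deposited.

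The 34 genes and the other gene lists were chosen with earlier results of these data known. Named were all 34 genes and, from each other list, the 3 strongest in SS and every gene in CS or CC, except for 1 result that is not reported here. The printed sequences followed the same kind of rule. They cover members with a CS or CC peak where RefSeq has a window at that promoter, and the 2 strongest SS members without one. For Iqsec1 a window at another start was used, and Lrrtm3 was added after its values were seen. Lists were compared with pandas 2.3.3 by gene name and by overlap of at least 1 bp, and the overlap code was tested on simulated data. Shares have 95% exact binomial (Clopper-Pearson) intervals, which cover counting only. Sequencing depth was not analysed here, and no p-value between conditions was computed. Of 16758 gene names 14941 matched RefSeq symbols (GRCm38.p6, the assembly that mm10 names), including all 34. Alternatives were another distance, a stricter q-value, lists of equal length, other overlap rules, other summaries per gene and, added after seeing the data, assignment by position. No column held samples outside the series.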

Additional observations from a re-analysis of the deposited data

How the results depend on the processing

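Of 42 alternative values 32 kept their count within 1.5 times or their median unchanged and 10 moved. When peaks had to reach a −log10 q of 5, the genes with a promoter peak fell from 3 to 0 in CS and from 2 to 0 in CC, and so did the SS genes also found there (0 and 0), because the CS and CC lists hold few such peaks. With lists of equal length, 16 genes had a promoter peak in SS, 15 in SC, 12 in both SS and SC, and 1 in both SS and CC, since fewer peaks were counted. Taking the mean over a gene's promoter peaks gave a median SS fold of 7.22, and taking the widest peak gave a median width of 1110 bp. Distances of 500 and 3000 bp, both overlap rules and assignment by position (added after seeing the data) moved no count by over 1.5 times. No paired analysis was possible because a condition's 3 samples share 1 list that holds no value of a single sample, and for the same reason no sample could be left out. Depth per sample is unknown here, so an absent peak says only that none was listed.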
